A study of Mus musculus with 96 samples.

Results

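This is an account of the mature microRNAs (miRNAs) of cardiac endothelial cells (ECs) 3 days after a myocardial infarction (D3), set against ECs of hearts without infarction (D0). The comparison used 8 of the 96 small RNA libraries of the series: 4 EC libraries of D0 and 4 of D3, chosen by the cell type and day in their labels. All animals were adult male C57Bl/6J mice. D3 animals had a permanent ligation of the left anterior descending coronary artery, and D0 animals had no infarction, so effects of surgery and of ischemia cannot be told apart. Hearts were digested with collagenase, cells bound by anti-CD45 beads were taken out, and ECs were then captured from the remainder with anti-CD144 (VE-cadherin) beads. By the labels each library was a pool of 3 mice, though the methods allow 2 where a sample was missing, and ECs, fibroblasts (FBs), hematopoietic cells (HCs) and cardiomyocytes of one day came from the same hearts.

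An miRNA is cut from a hairpin precursor, loaded into an Argonaute protein, and pairs with target mRNAs mainly through its seed, bases 2 to 8 from the 5′ end. Either arm of the hairpin (5p or 3p) can be kept. ECs line the coronary vessels, and after an infarction they meet hypoxia and inflammatory signals and later form new vessels. The miRNA best known in this cell type is miR-126a, which lies within Egfl7, an endothelial gene.

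Mature miRNA counts ranged from 2105446 to 20465553 per library at D0 and from 1698800 to 29037628 at D3. Reads with no match to a mature miRNA made up 48.5% to 67.3% of the reads in the D0 tables and 54.5% to 58.3% in the D3 tables. Levels are given as CPM, the share of a library's mature miRNA counts scaled to 1e6. A count of 3 corresponded to 0.147 to 1.42 CPM at D0 and to 0.103 to 1.77 CPM at D3, so the deepest libraries resolved rare miRNAs about as far as 0.1 CPM and the shallowest did not. Log2 CPM values of replicates correlated across miRNAs at 0.987 to 0.992 at D0 and at 0.986 to 0.994 at D3. Fold changes were fitted with the edgeR quasi-likelihood test on all 24 EC libraries, and a miRNA was called where its Benjamini-Hochberg adjusted p was under 0.05.

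The label was checked against marker miRNAs. The level of miR-126a-3p was 192994 ± 17895 CPM (SD, n = 4) in ECs at D0 and 184627 ± 26811 CPM at D3. At D0 this was 7.28 times the level in FBs, 2.73 times that in HCs and 28.3 times that in cardiomyocytes. miR-126a-3p was also the most abundant miRNA of the EC libraries, with 19.3% of the counts at D0 and 18.5% at D3. The cardiomyocyte miRNA miR-1a-3p was the next most abundant, at 102953 ± 23501 CPM at D0, which was 0.157 times its level in cardiomyocytes. The same ratio to cardiomyocytes was 2.92 for miR-133a-3p, 3.16 for miR-133b-3p, 0.755 for miR-208b-3p, 0.354 for miR-208a-3p and 0.332 for miR-499-5p. At D3 these ratios were 0.386, 0.390, 0.0305, 0.0380 and 0.0265 in the same order, and that of miR-1a-3p was 0.211. Cardiomyocytes held miR-133a-3p at 391 ± 345 CPM at D0 and 3254 ± 1996 CPM at D3, so the D0 ratios above 1 stand on low cardiomyocyte levels. The EC libraries thus held more miR-126a-3p than those of the other 3 cell types at D0, and they also held heart muscle miRNAs.

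The sequences that carry the results are shown here as RefSeq gives them (assembly GRCm38.p6), 5′ to 3′, with the seed in capitals. The first set rose at D3.
miR-21a-5p: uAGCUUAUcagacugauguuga
miR-7a-5p: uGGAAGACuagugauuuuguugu
miR-7b-5p: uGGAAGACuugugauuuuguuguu
miR-34b-5p: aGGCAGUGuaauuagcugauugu
miR-34a-5p (shown for its seed, not called): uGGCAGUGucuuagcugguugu
miR-147-5p: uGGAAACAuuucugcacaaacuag
miR-182-5p: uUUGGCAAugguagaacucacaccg
miR-451a: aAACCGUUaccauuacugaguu
miR-210-3p: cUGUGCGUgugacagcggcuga

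The next set rose at D3 and comes from the imprinted Dlk1-Dio3 locus. It is shown because its members share a place in the genome and, with one exception, no seed.
miR-134-5p: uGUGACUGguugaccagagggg
miR-379-5p: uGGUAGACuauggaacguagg
miR-541-5p: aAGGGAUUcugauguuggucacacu
miR-127-3p: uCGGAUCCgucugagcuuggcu
miR-379-3p: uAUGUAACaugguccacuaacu
miR-411-3p: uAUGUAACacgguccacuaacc

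The last set fell at D3. Its members of the miR-200 family fall into a pair of seeds.
miR-200b-3p: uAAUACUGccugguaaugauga
miR-200c-3p: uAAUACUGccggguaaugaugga
miR-200a-3p: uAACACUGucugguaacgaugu
miR-141-3p: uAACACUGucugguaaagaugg
miR-125a-5p: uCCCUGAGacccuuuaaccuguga
miR-338-5p: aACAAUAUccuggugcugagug

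Far more miRNAs rose than fell in ECs at D3. Of 421 miRNAs tested, 74 were called (17.6%), of which 65 were higher (15.4%) and 9 lower (2.14%). The CPM of the 4 D3 libraries lay wholly above those of D0 for 106 miRNAs (25.2%) and wholly below for 41 (9.74%). An unadjusted p under 0.05 was reached by 130. Above a mean of 10 CPM the risers were led by miR-147, the miR-34b and miR-34c pair, miR-134, miR-182, miR-21a, miR-7 and miR-451a. Of all 65 risers, 27 came from the Dlk1-Dio3 locus. The fallers were miR-200a, miR-200b, miR-200c, miR-141, miR-151-5p, miR-708-5p, miR-338-5p, miR-125a-5p and miR-1195. The split of 65 higher and 9 lower varied with the method and the libraries fitted. DESeq2, which differs in both scaling and model, gave 70 and 33, scaling by library size alone gave 73 and 8, and a fit of the 8 libraries alone gave 105 and 58. Leaving the 4 EC libraries of day 28 out of the fit, a choice made after the data were seen, gave 85 and 46. The fit also held day 28 replicate 3, which is treated below as a library that stands apart, and without it 91 were called. Without day 28 replicate 4 instead, again a choice made after the data were seen, 91 were called too. Over all 421 miRNAs the median change was 0.11 on the log2 scale, against which single changes can be read. Without D0 replicate 2 the number called was 46.

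**Figure D1:**
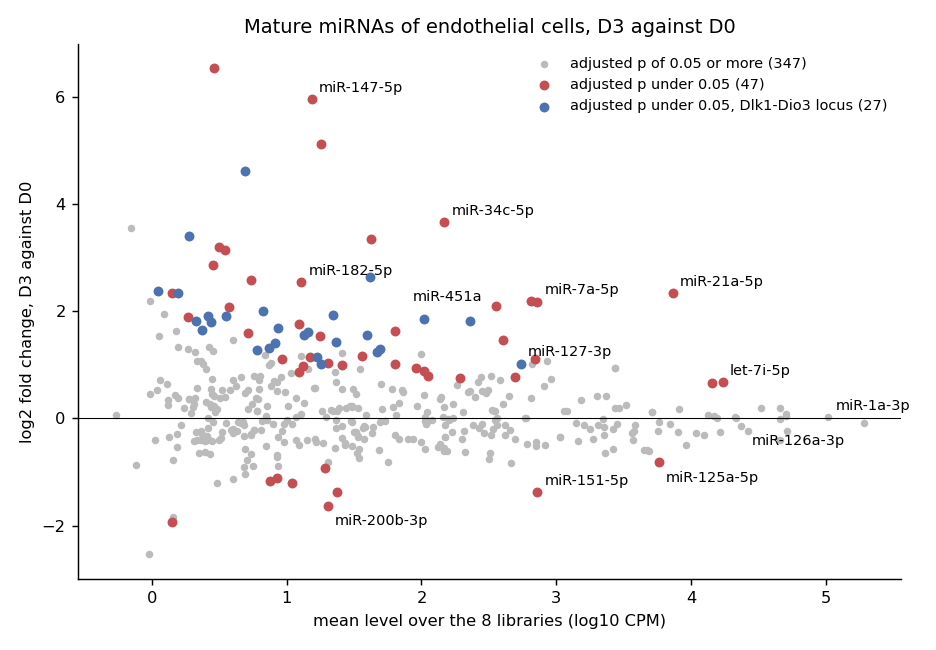
Log2 fold change of D3 against D0 in ECs (vertical axis) against the mean level over the 8 libraries (horizontal axis, log10 CPM) for the 421 miRNAs tested. Grey points were not called, red points were called, and blue points were called and lie in the Dlk1-Dio3 locus. Called miRNAs lie mostly above 0, and miR-126a-3p and miR-1a-3p, the most abundant, lie near 0.

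miR-34b and miR-34c are a pair of hairpins less than 1 kb apart on chromosome 9 (chr9:51103034-51103645), antisense to an intron of Btg4, and they are known as transcriptional targets of p53 that restrain the cell cycle. miR-34c-5p was at 23.0, 17.9, 27.2 and 16.1 CPM in the D0 libraries and at 262, 360, 239 and 240 CPM at D3. Every D3 library exceeded every D0 library by a wide margin. The log2 fold change was 3.66 (SE 0.41, adjusted p = 1.07e-07). miR-34b-5p went from 7.05 ± 3.45 CPM (SD, n = 4) to 77.0 ± 10.9 CPM, a log2 fold change of 3.34 (SE 0.41, adjusted p = 4.39e-07). The passenger arms miR-34b-3p and miR-34c-3p also rose, by 3.20 and 2.33 on the log2 scale, from 20 and 13 counts over the 4 D0 libraries. The call of miR-34c-3p was lost without D0 replicates 2 or 3 or D3 replicate 2. The related miR-34a-5p, which comes from a separate gene on chromosome 4 and has the seed GGCAGUG of miR-34b-5p, was at 25.3 ± 1.56 CPM at D0 and 37.3 ± 6.65 CPM at D3 and was not called (log2 fold change 0.55, SE 0.32, adjusted p = 0.250). Of the 5 tested members of the miR-34 list, 4 rose and 0 fell, with a median log2 fold change of 3.20 against 0.11 over all tested miRNAs. Higher calls made up 15.4% of all tested miRNAs. FBs held more of this pair than ECs: miR-34c-5p in ECs stood at 3.27% of its FB level at D0 and at 11.5% at D3.

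miR-147 gave the largest fold changes above a mean level of 10 CPM over the 8 libraries. It lies on chromosome 2 (chr2:122640803-122640881, GRCm38) within an exon of AA467197, and it is known as a miRNA induced by inflammatory signals through Toll-like receptors. The 5p arm had 1, 1, 10 and 2 counts in the D0 libraries, and at D3 it stood at 31.9, 28.8, 33.6 and 26.6 CPM. Its 4 D3 values thus differed little among themselves while D0 was near the detection limit. Pooled over the libraries of a day, 14 counts at D0 and 1182 at D3 gave a ratio of 64.8 (95% exact interval 38.5 to 119, counting error only). The 3p arm had 28 counts at D0 and 1229 at D3, a pooled ratio of 33.7 (23.2 to 50.9). The fitted log2 fold changes were 5.95 (SE 0.57, adjusted p = 1.31e-08) and 5.11 (SE 0.55, adjusted p = 6.72e-08), and both depend on the prior that the fit adds to low counts. The single larger fitted value among called miRNAs belonged to miR-6539, which had 1 count over the 4 D0 libraries and 3.94 to 7.06 CPM at D3.

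miR-21a, a miRNA that rises in many injured and inflamed tissues, was the most abundant miRNA among those that rose by more than 1 on the log2 scale. Its 5p arm was at 2816, 1834, 2554 and 2242 CPM at D0 and at 12210, 13208, 12041 and 11221 CPM at D3. The D3 libraries lay within a narrow band well above D0. The log2 fold change was 2.34 (SE 0.44, adjusted p = 0.000299). The hairpin lies in an exon of Vmp1 (chr11:86584067-86584158). Its other arm, miR-21a-3p, did not pass the filter on low counts in the EC fit.

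miR-7a and miR-7b share a seed and nearly all of their length, so reads of one can be counted to the other, and they are read here as one signal. miR-7 is known as a regulator of growth-factor and insulin signaling. miR-7a-5p was at 265, 249, 262 and 256 CPM at D0 and at 1303, 1248, 1068 and 1114 CPM at D3. The D0 libraries were almost equal, and the rise was about the same in each D3 library. Log2 fold changes were 2.18 (SE 0.30, adjusted p = 3.87e-06) for miR-7a-5p and 2.18 (SE 0.30, adjusted p = 3.82e-06) for miR-7b-5p. miR-7a is encoded in an intron of Hnrnpk on chromosome 13 and at a separate site on chromosome 7, and the counts do not say which was used.

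miR-182-5p, part of the miR-183 cluster on chromosome 6, rose from 3.77 ± 0.307 CPM to 22.0 ± 7.57 CPM (SD, n = 4), a log2 fold change of 2.53 (SE 0.38, adjusted p = 1.34e-05). Its cluster partner miR-183-5p rose by 3.14 on the log2 scale from 0.661 CPM. miR-210-3p, the miRNA most closely tied to hypoxia and HIF-1, was at 25.4, 21.6, 23.3 and 18.5 CPM at D0 and at 55.3, 46.2, 50.04 and 51.3 CPM at D3. Its log2 fold change was 1.17 (SE 0.25, adjusted p = 0.00131), with replicates of each day close together.

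miR-451a, a miRNA of red blood cells, was at 128, 196, 169 and 44.2 CPM at D0 and at 889, 551, 228 and 635 CPM at D3. Relative to their mean, its D3 replicates were spread more widely than those of the other leading risers. The log2 fold change was 2.09 (SE 0.50, adjusted p = 0.00355). The other erythroid markers were not called: miR-486a-5p was at 1183 ± 423 CPM at D0 and 933 ± 353 CPM at D3, and miR-144-3p at 4.40 ± 3.74 and 9.51 ± 7.52 CPM. The log2 fold change of miR-144-3p was 1.18 (edgeR adjusted p = 0.215). The summed level of the 3 erythroid markers was 1058 to 2012 CPM at D0 and 753 to 2274 CPM at D3. Most of that sum was miR-486a-5p, whose level did not follow that of miR-451a across cell types. Cardiomyocytes at D0 held miR-486a-5p at 1799 CPM and miR-451a at 1.27 CPM, so the sum is a poor reading of red cells. The part of red cell RNA in the change of miR-451a was not tested.

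**Figure D2:**
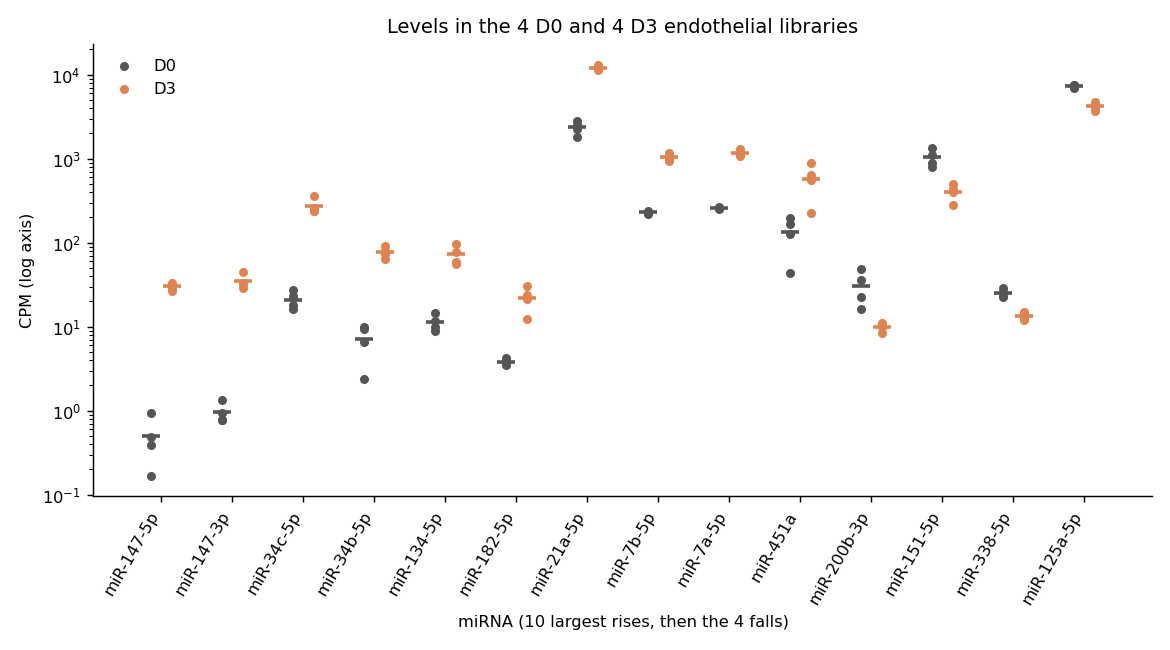
CPM (log axis) in the 4 D0 (grey) and 4 D3 (orange) EC libraries of the 10 largest rises and the 4 falls that passed the naming rule. Points are libraries and bars are group means. The D0 and D3 points do not overlap for any of these 14 miRNAs, which the naming rule required.

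The Dlk1-Dio3 locus on chromosome 12 is an imprinted region whose miRNAs are transcribed from the maternal chromosome together with the long noncoding RNAs Meg3, Rian and Mirg. It is best known for its activity during development. The grouping was made after the values were seen. Between Dlk1 and Dio3 (chr12:109452485-110281097, GRCm38), 43 miRNAs were tested. Of these, 27 rose (62.8%) and 0 fell, against 38 higher (10.1%) among the 378 other tested miRNAs. The median log2 fold change was 1.41 in the locus and 0.0089 elsewhere, 42 of the 43 values were positive, and 30 of the 43 (69.8%) had D3 libraries wholly above D0, against 20.1% elsewhere. The number still called was 17 without D0 replicate 2 and 16 without D3 replicate 2, the deepest D3 library.

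In CPM summed over the 43, the D0 libraries stood at 743, 696, 810 and 629 and the D3 libraries at 2004, 2206, 1738 and 1499. The lowest D3 sum was thus well above the highest D0 sum. The most abundant member, miR-127-3p, lies antisense to an exon of Rtl1, which it is known to cleave. It was at 388, 352, 402 and 275 CPM at D0 and at 786, 820, 735 and 578 CPM at D3, a log2 fold change of 1.02 (SE 0.22, adjusted p = 0.00111). miR-379-5p, the first miRNA of the large distal cluster, was at 87.1, 92.7, 118 and 97.8 CPM at D0 and at 353, 419, 360 and 295 CPM at D3 (log2 fold change 1.82, SE 0.29, adjusted p = 3.59e-05).

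miR-134-5p, known from the control of dendritic spines in neurons and lying in Mirg, had the largest rise of the locus above 10 CPM. It was at 8.99, 11.6, 14.4 and 9.97 CPM at D0 and at 77.3, 97.3, 56.5 and 58.7 CPM at D3 (log2 fold change 2.63, SE 0.31, adjusted p = 2.60e-07). miR-541-5p, also in Mirg, went from 45.0 ± 4.01 to 164 ± 34.8 CPM (SD, n = 4), a log2 fold change of 1.84 (SE 0.26, adjusted p = 3.97e-06). Members of low level moved by more: miR-341-3p, in an intron of Rian, had 11 counts at D0 and 504 at D3 over the 4 libraries of each day, a pooled ratio of 35.2 (95% exact interval 19.5 to 70.9). Split by position, the cluster from Mir379 to Mir3072 had 21 of 31 tested miRNAs called higher, and the cluster from Mir770 to Mir136 had 4 of 10. The single negative value was that of miR-673-5p, at 1.18 ± 0.690 CPM at D0 and 0.932 ± 0.682 CPM at D3, which was not called.

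**Figure D3:**
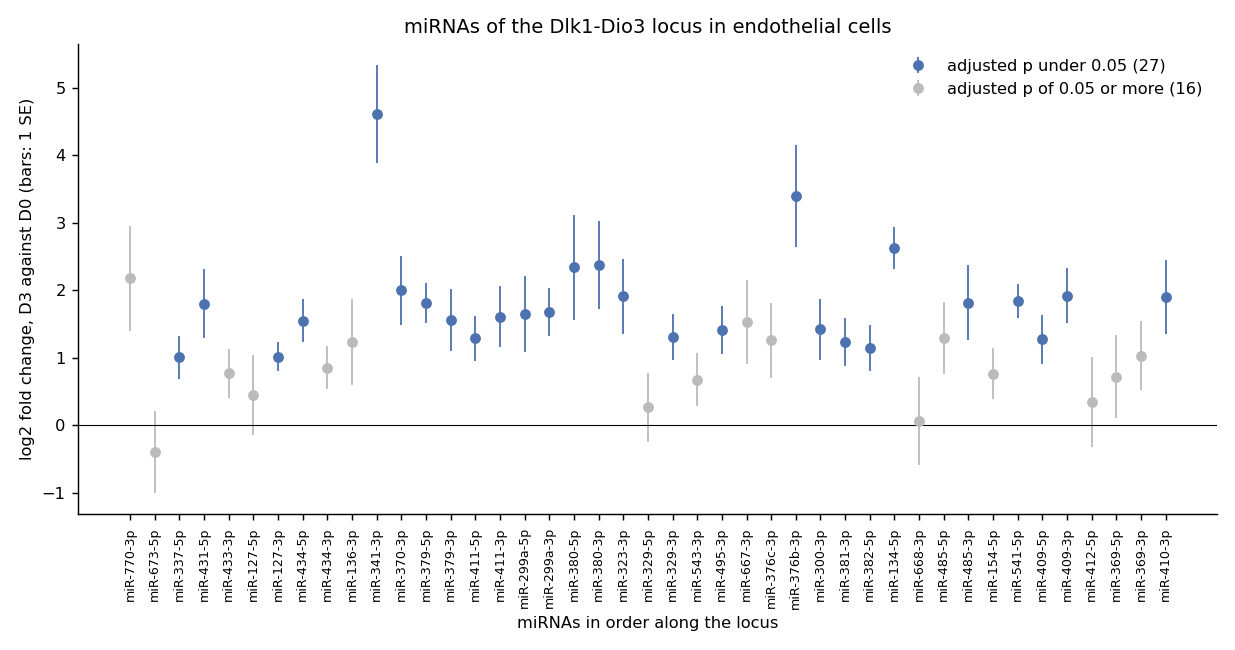
Log2 fold change of D3 against D0 in ECs for the 43 tested miRNAs of the Dlk1-Dio3 locus, ordered along the locus. Points are fitted values, bars are 1 SE, blue marks the 27 called miRNAs and grey the 16 others. Values lie between -0.40 and 4.61, and 42 of the 43 are above 0.

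FB markers moved in the same direction. The summed CPM of miR-199a-3p, miR-199a-5p, miR-199b-5p and miR-214-3p, which mark cardiac fibroblasts and other mesenchymal cells, was 2399 to 3338 at D0 and 4461 to 6656 at D3. All 4 markers had D3 libraries wholly above D0, against 25.2% of all tested miRNAs. Of the 4, miR-214-3p (log2 fold change 1.62, SE 0.27, adjusted p = 4.18e-05) and miR-199b-5p (1.11, SE 0.39, adjusted p = 0.0445) were called, beside 15.4% called higher among all tested. miR-199a-5p and miR-199b-5p moved alike from similar levels (542 and 432 CPM at D0) and may share reads. The call of miR-199b-5p was lost on leaving out any one of the libraries but D3 replicate 4, and also when miRNAs of identical counts were counted once (adjusted p = 0.0524). It was lost with the replicate number as a block too (adjusted p = 0.0610). miR-199a-3p (0.94, adjusted p = 0.0509) and miR-199a-5p (1.06, adjusted p = 0.0586) were just outside the threshold. miR-214 and miR-199a-2 lie together in Dnm3os, antisense to Dnm3 on chromosome 1. The summed FB markers of ECs amounted to 4.29% of their level in FBs at D0 and 6.19% at D3. Taken singly, miR-214-3p stood at 7.05% of its FB level at D0 and 16.4% at D3. The shares were 4.50% and 6.38% for miR-199a-3p, 4.03% and 5.82% for miR-199a-5p, and 3.75% and 5.61% for miR-199b-5p. For the miRNAs of the Dlk1-Dio3 locus the median of the same share was 7.18% at D0 and 10.8% at D3, and for miR-379-5p it was 6.49% and 16.7%. The part of fibroblast RNA in the rises of this locus and of miR-34b and miR-34c was not tested. In bulk libraries, more cells of a type and more RNA of a miRNA per cell cannot be told apart.

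The other marker lists gave fewer calls. Over all 421 tested miRNAs 17.6% were called, so few calls were to be expected in lists this small. In the endothelial list (miR-126a-3p and miR-126a-5p), 0 of 2 were called. Among cardiomyocyte markers 0 of 5 tested were called, and their summed level was 76628 to 135739 CPM at D0 and 83470 to 163698 CPM at D3. miR-1a-3p was at 160011 CPM in D3 replicate 1 and at 81293 to 89641 CPM in the other D3 libraries. The muscle miRNAs miR-133a-3p (1143 ± 334 to 1255 ± 283 CPM) and miR-133b-3p (1091 ± 321 to 1201 ± 269 CPM) behaved alike and share nearly all of their sequence. miR-208a-3p, encoded in Myh6, was at 41.2 ± 13.3 CPM at D0 and 27.2 ± 7.90 CPM at D3, its other arm miR-208a-5p at 5.93 ± 3.58 and 3.85 ± 0.491 CPM, and miR-499-5p, encoded in Myh7b, at 398 ± 111 and 237 ± 112 CPM.

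Of the mural (smooth muscle and pericyte) markers 0 of 4 were called, beside 17.6% of all tested miRNAs. Their sum was 48816 to 63643 CPM at D0 and 42874 to 66248 CPM at D3. miR-143-3p was at 54710 ± 6872 and 47292 ± 10632 CPM and miR-145a-5p at 4071 ± 657 and 3494 ± 497 CPM. The lesser arms miR-143-5p (177 ± 40.5 to 119 ± 10.9 CPM) and miR-145a-3p (585 ± 103 to 331 ± 69.7 CPM) had D3 libraries wholly below D0 without a call, as did 9.74% of all tested miRNAs, called or not. Among hematopoietic markers 1 of 4 was called, the myeloid miR-223-3p, beside 15.4% of all tested miRNAs called higher. miR-223-3p stood at 0.8289 ± 0.285 CPM at D0 and 2.92 ± 1.86 CPM at D3 (log2 fold change 1.90, SE 0.58, adjusted p = 0.0192). Its call was lost without D0 replicates 2, 3 or 4 or D3 replicate 2. The summed hematopoietic markers were at 2221 to 2597 CPM at D0 and 1914 to 2575 CPM at D3. Nearly all of that sum was miR-150-5p, which ECs held at 0.868 times its HC level at D0. The same ratio was 0.00307 for miR-142a-3p, 0.00253 for miR-142a-5p and 0.000978 for miR-223-3p, so the sum is a poor reading of leukocytes. miR-142a-3p, found in all leukocytes, was at 10.1 ± 5.64 and 18.8 ± 5.21 CPM, miR-142a-5p at 2.94 ± 2.23 and 2.05 ± 0.240 CPM, and the lymphocyte miRNA miR-150-5p at 2372 ± 161 and 2157 ± 312 CPM. The liver miRNA miR-122-5p was at 161 ± 38.8 and 159 ± 55.05 CPM.

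**Figure D4:**
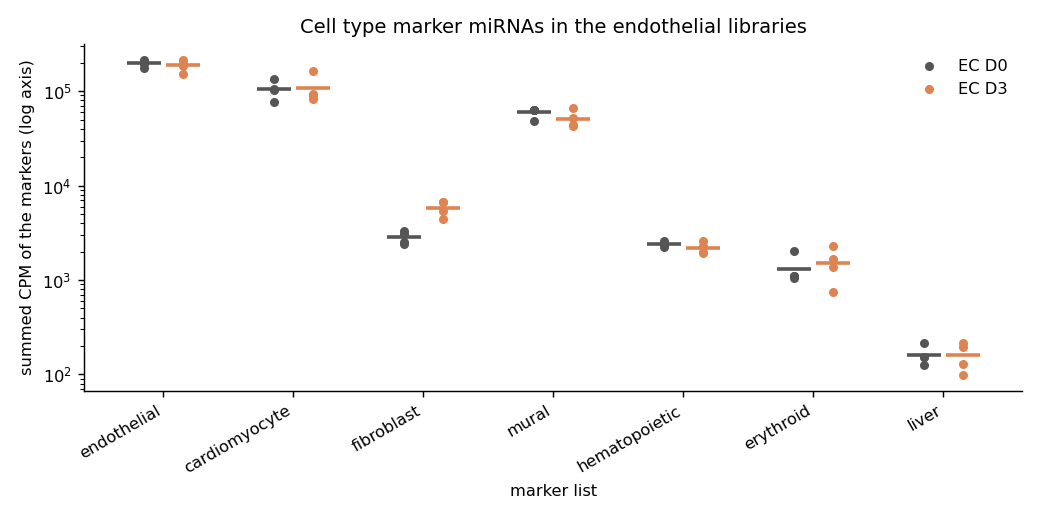
Summed CPM (log axis) of 7 lists of marker miRNAs in the 4 D0 (grey) and 4 D3 (orange) EC libraries. Points are libraries and bars are group means. The fibroblast sum is the one whose D3 libraries (4461 to 6656 CPM) lie wholly above D0 (2399 to 3338 CPM).

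The miR-200 family, known to keep epithelial cells from a mesenchymal state by holding down Zeb1 and Zeb2, fell. Of its 5 tested members 4 were lower and 0 higher, with a median log2 fold change of -1.21 against 0.11 over all tested miRNAs. Lower calls made up 2.14% of all tested miRNAs. miR-200b-3p was at 22.7, 48.1, 16.3 and 35.6 CPM at D0 and at 8.41, 10.1, 10.0 and 11.2 CPM at D3. Levels at D0 were scattered while the D3 libraries lay close together below them, and the log2 fold change was -1.63 (SE 0.38, adjusted p = 0.00300). miR-200a-3p, from the same cluster (chr4:156053905-156055750, in an intron of Ttll10), was at 34.7 ± 14.7 and 13.1 ± 4.21 CPM (SD, n = 4), and its range at D3 (9.84 to 18.8 CPM) overlapped that at D0 (16.5 to 52.3 CPM). Its log2 fold change was -1.36 (SE 0.33, adjusted p = 0.00430). miR-200c-3p (log2 fold change -1.21, adjusted p = 0.0287) and miR-141-3p (-1.11, adjusted p = 0.0191) form the second cluster of the family, on chromosome 6. The calls of both miR-200c-3p and miR-141-3p were lost without D0 replicate 2 and also without D3 replicate 1, which left 2 of the 4 family calls. That of miR-200c-3p was also lost without D0 replicate 4 or D3 replicates 2 or 3.

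Among abundant miRNAs, miR-125a-5p and miR-151-5p fell. miR-125a-5p, which is known to act in endothelial and hematopoietic cells, was at 7123, 7607, 7442 and 6872 CPM at D0 and at 3688, 4312, 4112 and 4682 CPM at D3. Both days were tight and did not overlap, and the log2 fold change was -0.81 (SE 0.29, adjusted p = 0.0484). That call was lost on leaving out any one of the 8 libraries, with an adjusted p of at most 0.108, and also with scaling by library size alone (adjusted p = 0.0531). miR-151-5p, encoded in Ptk2, was at 1346, 1113, 900 and 797 CPM at D0 and at 284, 430, 404 and 505 CPM at D3 (log2 fold change -1.37, SE 0.45, adjusted p = 0.0287). Its call was lost without D0 replicates 1 or 2 or D3 replicates 1, 2 or 3 (adjusted p at most 0.0884). miR-338-5p, in an intron of Aatk, was at 25.1 ± 2.92 and 13.4 ± 1.45 CPM (SD, n = 4; log2 fold change -0.93, SE 0.24, adjusted p = 0.00578), and lost its call without the filter on low counts. In the miR-28, miR-151 and miR-708 list, whose members share related sequences, 2 of 6 tested fell and 0 rose (median log2 fold change -0.33). Over all tested miRNAs 2.14% were called lower and the median was 0.11. The other faller of this list was miR-708-5p, at 10.3 ± 3.64 and 4.74 ± 2.13 CPM (log2 fold change -1.17, adjusted p = 0.0282), and it lost its call without any of 5 of the 8 libraries (D0 replicates 1 or 4, D3 replicates 1, 2 or 4) and without the filter. miR-1195 was at 2.18 ± 1.60 CPM at D0 and 0.649 ± 0.364 CPM at D3 (log2 fold change -1.93, adjusted p = 0.0293), and lost its call without D0 replicate 2 or D3 replicates 1, 2 or 4.

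The remaining families are given by their counts. For comparison, 15.4% of all 421 tested miRNAs were called higher and 2.14% lower, and 234 had a positive log2 fold change. In the list of inflammation-linked miRNAs 3 of 8 tested rose and 0 fell (median log2 fold change 0.49): miR-21a-5p and miR-147-3p, above, and miR-155-5p, a miRNA of activated immune and endothelial cells, which was at 61.7 ± 4.92 CPM at D0 and 120 ± 22.8 CPM at D3 (log2 fold change 0.94, SE 0.23, adjusted p = 0.00522, call lost without the filter). miR-146a-5p, which restrains NF-κB signaling, was in the same list and not called (4204 ± 481 to 3228 ± 536 CPM). Of the miR-17-92 cluster and its paralogs, which drive proliferation, 1 of 15 tested rose, miR-18a-5p (5.58 ± 1.503 to 19.0 ± 2.05 CPM), and 13 of the 15 log2 fold changes were positive (median 0.51). In this list miR-25-3p, the most abundant, was at 2199 ± 207 and 2221 ± 90.7 CPM. The miR-140 and miR-455 list, miRNAs of cartilage and connective tissue, had 2 of 4 higher (median 0.77), miR-455-5p by 1.54 and miR-455-3p by 1.59 on the log2 scale, while miR-140-3p was at 577 ± 30.7 and 591 ± 78.2 CPM.

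Of the let-7 family, which favors differentiation, 1 of 9 rose, and the median log2 fold change was 0.0091. Over all tested miRNAs 15.4% rose and 2.14% fell, beside which this list and the next are to be read. let-7i-5p was at 14190, 13296, 13451 and 11454 CPM at D0 and at 23524, 20045, 22750 and 18243 CPM at D3 (log2 fold change 0.67, SE 0.20, adjusted p = 0.0159), and lost its call without D0 replicates 2 or 4 or D3 replicate 1 or without the filter on low counts. The most abundant member, let-7a-5p, was at 48441 ± 1800 and 52103 ± 1974 CPM. The row let-7j moved with let-7i-5p (log2 fold change 0.65, adjusted p = 0.0159) and also lost its call without the filter. The long stretch that both sequences share means that their reads may be split. Of the miR-15 and miR-16 family 1 of 7 rose, as did 1 of 10 in the miR-322 cluster, in both cases miR-503-5p, a miRNA of the cell cycle and of vessels (143 ± 16.3 to 244 ± 45.6 CPM, log2 fold change 0.75, SE 0.23, adjusted p = 0.0230). miR-503-5p lost its call without D0 replicate 2 or D3 replicates 2, 3 or 4, or without the filter. miR-351-5p of that cluster went from 378 ± 8.52 to 513 ± 55.1 CPM without a call, and miR-16-5p from 1328 ± 72.4 to 1715 ± 425 CPM. In the miR-99, miR-100 and miR-125 list 2 of 9 rose and 1 fell (median -0.11). miR-99b-3p rose (72.4 ± 4.65 to 137 ± 8.60 CPM, log2 fold change 0.89, SE 0.27, adjusted p = 0.0191), and lost its call without D0 replicates 1, 2 or 4 or D3 replicate 1, or without the filter. The other riser, miR-125b-1-3p, changed by 1.03 on the log2 scale (adjusted p = 0.0350) and lost its call without D0 replicates 1, 2 or 4 or D3 replicates 1 or 2, or without the filter. miR-99a-5p was at 13696 ± 1585 and 11129 ± 1275 CPM.

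No member was called in the lists of miR-23, miR-27 and miR-24 (11 tested), miR-221 and miR-222 (3), miR-10 and miR-196 (5), miR-29 (5), miR-30 (8), miR-26 (2), miR-181 (5), miR-148 and miR-152 (3), miR-130 and miR-301 (1), miR-378 (5), miR-497 and miR-195 (3) or miR-22 (2). Over all tested miRNAs 17.6% were called. All 5 members of the miR-378 list had negative log2 fold changes (-0.61 to -0.55), and 4 of the 5 had D3 libraries wholly below D0, against 9.74% of all tested miRNAs. The most abundant of them, miR-378d, was at 5855 ± 493 and 3867 ± 554 CPM (adjusted p = 0.0656). miR-378a-3p stood close to it in level and change (5628 and 3774 CPM, log2 fold change -0.59). Reads may be shared between members, so the 5 are not read as separate signals. The median of the list was -0.59. In the miR-181 list (median -0.48), miRNAs known to temper endothelial NF-κB signaling, 4 of 5 lay wholly below D0 without a call, beside the same 9.74%. They were led by miR-181a-5p (3140 ± 318 to 2139 ± 291 CPM, adjusted p = 0.0601). All 3 tested members of the list of miR-221 and miR-222 lay wholly above D0, against 25.2% of all tested miRNAs, with miR-221-3p at 358 ± 35.8 and 440 ± 32.0 CPM. miR-26a-5p, the most abundant of the miR-26 pair, was at 51452 ± 5527 and 39324 ± 2763 CPM, wholly below D0, with a log2 fold change of -0.41 (SE 0.21, adjusted p = 0.187). Nearly level were miR-10a-5p (14391 ± 429 and 15163 ± 1829 CPM), miR-30a-5p (48994 ± 3436 and 51490 ± 8287 CPM), miR-27a-3p (24087 ± 3961 and 22416 ± 1000 CPM), miR-148a-3p (7564 ± 1276 and 8617 ± 1845 CPM) and miR-29a-3p (3965 ± 744 and 3665 ± 618 CPM). Log2 fold changes of the other leading members were -0.38 for miR-22-3p, -0.19 for miR-195a-5p, -0.27 for miR-130a-3p and -0.20 for miR-151-3p, the arm opposite the falling miR-151-5p, and none was called.

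Summing miRNAs by seed asks whether a change holds for the carriers of a targeting sequence together. Sequences were at hand for 355 of the 421 tested miRNAs (84.3%), and a family sums those carriers alone. The 66 miRNAs without one include miR-1a-3p, miR-143-3p and 7 called miRNAs: miR-34c-5p, miR-147-3p, miR-151-5p, miR-199b-5p, miR-532-5p, miR-421-3p and miR-6539. The miR-34 family sum thus lacks miR-34c-5p, and the order of families below leaves these miRNAs out. Of 289 seed families 71 were called (24.6%), 47 higher (16.3%) and 24 lower (8.30%). Without D3 replicate 2 the number was 34, and without D0 replicate 2 it was 38. Across 198 families of a single miRNA the family value lay 0.20 below the miRNA's own log2 fold change at the median. Such a family holds the same counts as its miRNA, while scaling factors were computed anew for the families. The offset is thus not a change in counts, and the split of higher and lower families depends on it. Scaling by library size alone gave 63 higher and 5 lower families. The miR-7 seed GGAAGAC rose from 487 ± 12.8 to 2241 ± 220 CPM (SD, n = 4), a log2 fold change of 1.98 (SE 0.28, adjusted p = 1.19e-05). The seed AGCUUAU of miR-21a-5p (2.15) and AACCGUU of miR-451a (1.87) were the other leading families above 100 CPM, followed by AGGGAUU of miR-541-5p (1.64) and GGUAGAC of miR-379-5p (1.62).

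Among families with several expressed members, the seed AAUACUG of miR-200b-3p, miR-200c-3p and miR-429-3p fell from 50.5 to 18.2 CPM (log2 fold change -1.68, SE 0.34, adjusted p = 0.000749) and the seed AACACUG of miR-200a-3p and miR-141-3p from 46.5 to 18.3 CPM (-1.53, SE 0.32, adjusted p = 0.000805). The seed AUGUAAC of miR-411-3p and miR-379-3p, both of the Dlk1-Dio3 locus, rose from 13.8 to 42.2 CPM (1.39, SE 0.45, adjusted p = 0.0270). The largest falls above 100 CPM were those of the families of miR-499-5p (-0.96), of miR-125a-5p, miR-125b-5p and miR-351-5p together (-0.86), of miR-149-5p (-0.84), of miR-191-5p (-0.84) and of miR-378d (-0.82). All but that of miR-378d lost their call when libraries were scaled by size alone. The families of miR-499-5p, miR-149-5p, miR-191-5p and miR-378d hold 1 miRNA each. None of these miRNAs was called in the fit of single miRNAs (edgeR adjusted p = 0.126 for miR-499-5p and 0.0656 for miR-378d). The miR-499-5p family also lost its call without D0 replicates 1, 2 or 3 or D3 replicates 2, 3 or 4, and the miR-149-5p family without D0 replicates 1 or 2 or D3 replicates 2, 3 or 4.

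Arm usage asks which strand of a hairpin is kept, and it does not depend on the scaling of libraries. Of 104 hairpins with both arms counted, 3 changed their log2 ratio of 5p to 3p counts in the limma fit (2.88%), 1 toward 5p (0.962%) and 2 toward 3p (1.92%). miR-99b was at 6.50, 6.77, 6.59 and 6.61 at D0 and at 5.48, 5.60, 5.72 and 5.68 at D3. All 4 D3 libraries lay about 1 unit below D0, so the minor 3p arm gained by a factor close to 2 over the 5p arm (difference -0.997, SE 0.19, adjusted p = 0.00383). For miR-503 the ratio went from 1.29 ± 0.133 to 2.62 ± 0.350 (SD, n = 4) toward the 5p arm (difference 1.33, SE 0.32, adjusted p = 0.0221), and this call was lost without D0 replicates 2 or 3 or D3 replicates 2, 3 or 4. The third hairpin called was miR-296, of low counts. miR-340 (difference 1.44, adjusted p = 0.117), miR-181c (-1.02, adjusted p = 0.140) and miR-335 (-1.0005, adjusted p = 0.142) had ratios that did not overlap between days without a call. Leaving out D0 replicates 2 or 3 or D3 replicates 2 or 4 left 1 hairpin called.

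Whether the D3 change of ECs differed from that of FBs or HCs was tested as an interaction in 1 fit of all 96 libraries with 712 miRNAs. That fit treats ECs, FBs and HCs of a heart as independent, and its EC values differ slightly from those above. It kept 3 libraries treated here as standing apart: FB D0 replicate 2 (2217588 mature counts, other FB D0 libraries 12809469 to 19196750), HC D0 replicate 3 (18286, others 26449253 to 29504666) and EC D28 replicate 3. The authors left outlying libraries of these same groups out of their own plots, and the sources used here do not say which replicates. The scaling factor of EC D28 replicate 3 in the EC fit, 1.11, was close to that of replicate 1 (1.10). Those of EC D28 replicates 2 and 4 were 0.799 and 0.716. Against FBs, 30 miRNAs differed (4.21%), 11 with a higher change in ECs (1.54%) and 19 with a lower one (2.67%). miR-34c-5p rose by 3.47 on the log2 scale in ECs and by 1.62 in FBs, a difference of 1.85 (SE 0.42, adjusted p = 0.00141). miR-379-5p rose by 1.62 in ECs and by 0.22 in FBs, a difference of 1.40 (SE 0.44, adjusted p = 0.0455). In the opposite direction, miR-155-5p changed by 0.74 in ECs and 2.93 in FBs (difference -2.20, SE 0.40, adjusted p = 2.77e-05), miR-206-3p by -0.15 and 1.99 (-2.15, SE 0.51, adjusted p = 0.00281), and miR-20a-5p by 0.55 and 2.43 (-1.88, SE 0.59, adjusted p = 0.0455). The differences of miR-379-5p and miR-20a-5p each lost their call without EC D0 replicates 1, 2 or 4, EC D3 replicate 1, FB D0 replicates 1 or 2 or FB D3 replicate 1. That of miR-379-5p was also lost without EC D3 replicate 2, and that of miR-20a-5p without EC D0 replicate 3, EC D3 replicates 3 or 4 or FB D3 replicate 2. For the 43 miRNAs of the Dlk1-Dio3 locus, 3 had a higher change in ECs than in FBs and 0 a lower one. The median change of these 43 was 1.24 in ECs, beside 0.67 in FBs and -0.73 in HCs. Without the 3 libraries that stand apart, 30 miRNAs again differed from FBs, 11 higher and 19 lower, but the differences of miR-379-5p (1.36, adjusted p = 0.0743) and miR-20a-5p (-1.66, adjusted p = 0.0882) lost their calls. Those of miR-34c-5p (2.01), miR-155-5p (-2.05) and miR-206-3p (-2.13) kept theirs. In the locus 1 of 43 then had a higher change in ECs, and the medians were 1.24, 0.65 and -0.73.

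Against HCs, 225 miRNAs differed (31.6%), 152 higher in ECs (21.3%) and 73 lower (10.3%). DESeq2 split its 216 calls into 106 and 110, and scaling by library size alone split 210 into 108 and 102. Without the 3 libraries that stand apart, 226 differed, 155 higher and 71 lower, and the differences named here kept their calls. In the Dlk1-Dio3 locus 30 of 43 were higher than in HCs and 0 lower, with or without those 3 libraries. miR-335-3p, from an intron of the imprinted gene Mest, rose by 1.27 in ECs (209.7 to 589.8 CPM) and changed by -1.76 in HCs, a difference of 3.04 (SE 0.38, adjusted p = 4.51e-09). Next were miR-34c-5p (difference 2.96, SE 0.43, adjusted p = 2.04e-07) and miR-211-5p, which was near level in ECs (288 and 274 CPM) and changed by -3.03 in HCs (difference 2.73, SE 0.42, adjusted p = 6.72e-07). Changes lower in ECs were those of miR-340-5p (difference -1.37, adjusted p = 0.00934), miR-221-3p (-1.06, adjusted p = 0.0126) and miR-98-5p (-0.84, adjusted p = 0.0166, lost without the filter on low counts). For miR-7a-5p the changes were 1.99 (ECs), 2.35 (FBs) and 2.07 (HCs), and for miR-21a-5p 2.15, 1.92 and 1.48, with no difference called for either. For miR-147-5p the rise of 5.77 in ECs stood beside 2.90 in FBs (difference 2.87, SE 0.71, adjusted p = 0.00494) and 4.60 in HCs (difference 1.17, SE 0.63, adjusted p = 0.160). miR-210-3p changed by 0.97 in ECs and 2.94 in HCs (difference -1.98, SE 0.52, adjusted p = 0.00213).

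**Figure D5:**
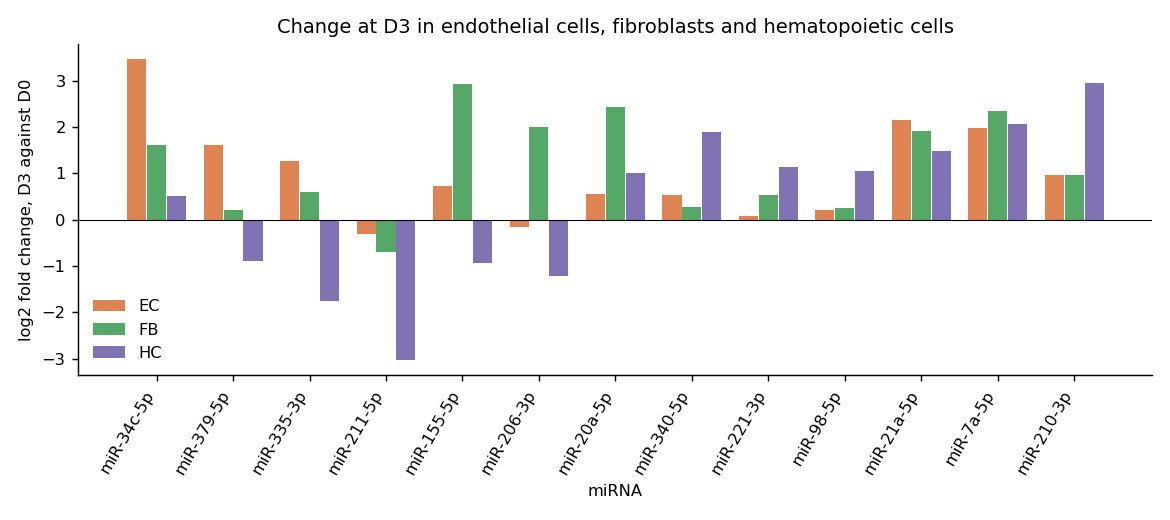
Log2 fold change of D3 against D0 in ECs (orange), FBs (green) and HCs (purple) from 1 fit of 96 libraries for 13 miRNAs, drawn without error bars. The change of miR-34c-5p was largest in ECs (3.47), that of miR-155-5p in FBs (2.93) and that of miR-340-5p in HCs (1.89), and miR-7a-5p lies between 1.99 and 2.35 in all 3.

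The other days of the EC series place D3 in time, and all of them share the D0 libraries. miR-147-5p had group means of 3.47 CPM at day 1, 30.2 at D3, 11.9 at day 7, 2.41 at day 14 and 1.47 at day 28. miR-7a-5p was likewise highest at D3, with 432, 1183, 490, 364 and 365 CPM on these days, as was miR-451a with 230, 576, 228, 140 and 81.6 CPM. miR-21a-5p went through 3987, 12170, 10958, 6505 and 3421 CPM. miR-34c-5p was at 54.2 CPM at day 1, 275 at D3, 209 at day 7, 90.02 at day 14 and 85.4 at day 28. Of the 43 tested miRNAs of the imprinted locus, 39 had their highest group mean at day 7 and 1 at D3, against 72 and 78 of the 378 other tested miRNAs. Among them miR-134-5p had 15.7, 72.4, 120, 39.0 and 24.5 CPM, and miR-379-5p 116, 357, 646, 270 and 476 CPM. miR-200b-3p was at 28.3 CPM at day 1, 9.93 at D3, 17.5 at day 7, 38.3 at day 14 and 27.9 at day 28.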

How the data were processed

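Small RNA libraries were made from 50 ng RNA with the NEBNext small RNA kit (16 PCR cycles), each from pooled RNA of 3 mice per the labels (2 where a sample was missing, per the methods). The authors trimmed reads (Trim Galore), aligned them (Bowtie2, SAMtools, nf-core smrnaseq; build mm10; miRBase) and deposited counts per mature miRNA, with no normalization. Reads were aligned to mature sequences, so members that differ by a base or so may share reads. Separately, 77 miRNAs fell in 32 sets of identical counts, some of unrelated sequence. The row of unmatched reads was left out. Of 1978 mature rows, 1679 had a RefSeq sequence.

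The D3 and D0 groups come from the labels. Counts were fitted with edgeR 4.0.16 (TMM, its default filter on low counts, quasi-likelihood test, adjusted p under 0.05) on all 24 EC libraries. Arm ratios, log2 of 5p over 3p counts with 0.5 added to each, were fitted with limma 3.58.1 for hairpins whose arms had a mean of at least 10 counts. Seed families summed miRNAs of equal bases 2 to 8. DESeq2 1.42.0 was an alternative (R 4.3.3, Python 3.11.15). The fits were tested on simulated data.

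Named miRNAs were the 10 largest rises and up to 10 largest falls among called miRNAs whose libraries did not overlap between days, with a mean of at least 10 CPM (4 falls met this), list members called at 100 CPM or more and the most abundant member of each list, the 5 most abundant miRNAs, the markers, both arms of miR-126a, miR-21a and miR-208a, the 5 arm ratios of smallest p where both arms averaged 50 counts or more, and the leading families and differences between cell types at 100 CPM or more. Markers and lists are reported in full as counts. The members and lists were chosen with earlier results of these data known. Other miRNAs named, such as miR-6539, miR-1195, miR-296 and the members of the Dlk1-Dio3 locus, were chosen after their values were seen. Intervals cover counting error only, since reads carried no molecular identifiers. Since libraries are pools, p-values describe the spread between pools.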

Additional observations from a re-analysis of the deposited data

Results flagged for a closer look

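In 10 of the 134 groups of 4 libraries examined, 1 library stood apart, its gap to the nearest other passing Dixon's critical value. Chance gives this in about 1 in 20 groups. At D0 these were miR-143-3p in replicate 4 (44451 CPM), miR-486a-5p in replicate 2 (1811 CPM), miR-26a-5p in replicate 1 (59705 CPM), miR-142a-5p in replicate 1 (6.25 CPM), miR-378d in replicate 3 (5123 CPM) and the arm ratio of miR-503 in replicate 2 (1.10 on the log2 scale). At D3 all 4 were in replicate 1: miR-1a-3p (160011 CPM), miR-499-5p (404 CPM), miR-130a-3p (25.4 CPM) and miR-26a-5p (35207 CPM). The heart muscle miRNAs miR-1a-3p and miR-499-5p were high in that library, and without it the log2 fold change of miR-1a-3p was -0.29 rather than 0.02.

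The change at D3 differed between cell types in the interaction test for the following miRNAs. Against FBs the difference (EC minus FB, log2) was -2.20 for miR-155-5p, -2.15 for miR-206-3p, -1.88 for miR-20a-5p, 1.85 for miR-34c-5p and 1.40 for miR-379-5p. Against HCs it was -1.37 for miR-340-5p, -1.06 for miR-221-3p, -0.84 for miR-98-5p, 3.04 for miR-335-3p, 2.96 for miR-34c-5p and 2.73 for miR-211-5p.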

How the results depend on the processing

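All 74 called miRNAs kept their direction wherever they were tested under every alternative run. DESeq2 still called 73 of them, the fit without a filter on low counts 55, and the fit of the 8 libraries alone all 64 that it tested. The number called was 163 in the 8 libraries alone and 131 without the day 28 libraries (chosen after seeing the data), and it ranged from 46 to 72 with single libraries left out. Seed families numbered 120 in the 8 libraries alone and 34 to 58 with single libraries left out, and arm ratios 17, and 1 to 3. Differences from FBs numbered 60 in the compared groups alone and 24 to 36 with single libraries left out. The 19 calls lost without the filter were those of let-7i-5p, let-7j and miR-125b-1-3p, 155-5p, 15b-3p, 214-5p, 299a-5p, 337-5p, 338-5p, 350-3p, 365-3p, 409-5p, 421-3p, 503-5p, 532-3p, 532-5p, 672-5p, 708-5p and 99b-3p.

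The replicate numbers did not pair the samples: same-numbered D0 and D3 libraries correlated at -0.07, -0.05, -0.08 and -0.10 in their deviations. A replicate block gave 75 miRNAs, 71 families, 3 arm ratios, 31 differences from FBs and 221 from HCs.

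Some uncalled miRNAs near 0 changed sign. With DESeq2 the log2 fold change was -0.0034 for let-7a-5p, -0.031 for miR-10a-5p, -0.036 for miR-30a-5p, -0.082 for miR-1a-3p and -0.076 for miR-140-3p. For miR-10a-5p, miR-30a-5p, miR-1a-3p and miR-140-3p it was -0.016, -0.024, -0.057 and -0.059 without the filter, -0.015, -0.017, -0.056 and -0.057 with identical miRNAs counted once, and -0.011, -0.014, -0.051 and -0.053 without day 28. In the 8 libraries alone it was -0.011 for miR-1a-3p and -0.0046 for miR-140-3p, and by library size 0.014 for miR-25-3p. With single libraries left out, values ran from -0.046 to 0.27 for miR-133b-3p, -0.050 to 0.27 for miR-133a-3p, -0.042 to 0.13 for miR-30a-5p, -0.29 to 0.13 for miR-1a-3p, -0.075 to 0.063 for miR-140-3p, -0.089 to 0.084 for miR-25-3p, -0.23 to 0.16 for miR-122-5p, -0.25 to 0.0063 for miR-27a-3p and -0.60 to 0.075 for miR-142a-5p. The cause was not tested. Depth limits miRNAs near 0.103 to 1.77 CPM, where a library holds 3 counts.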

Other observations

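Other hairpin clusters moved in part, beside 15.4% called higher among all tested miRNAs. Of the X-linked cluster from Mir532 to Mir500, 2 of 6 tested miRNAs rose, led by miR-532-5p, which was at 388, 363, 339 and 349 CPM at D0 and at 638, 612, 661 and 566 CPM at D3 (log2 fold change 0.77, SE 0.20, edgeR adjusted p = 0.00826). In the imprinted cluster of Mir298 and Mir296 near Gnas, 2 of 3 rose, with a median log2 fold change of 2.57. Only 1 of the 3 had D3 libraries wholly above D0, against 25.2% of all tested miRNAs. Counts of miR-296-3p were low, at 2, 5, 8 and 3 in the D0 libraries and 42, 143, 2 and 25 in the D3 libraries.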
